A study of Mus with 2 samples.

Results

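The histone genes were examined in mouse hematopoietic stem cells (HSCs) with and without ID2, an inhibitor of DNA binding. All rows of the deposited gene list whose symbol begins with Hist1h, Hist2h, Hist3h, Hist4h, H2af or H3f were taken, together with H1f0 and H1fx, which gave 83 of 27998 rows. The rule used symbols and no expression value. Of the 83 rows, 69 were replication-dependent histones (6 linker H1, 19 H2A, 19 H2B, 12 H3 and 13 H4 genes), 13 were replacement histones (2 H1, 9 H2A and 2 H3 genes) and 1 was H3f3aos, an antisense RNA at H3f3a that was put in neither class. Classes were set by symbol, so every row with the prefix Hist counted as replication-dependent, including Hist1h2al, annotated as a transcribed pseudogene.

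Cells were sorted from tibias and fibulas as LSK FLT3- CD150+ CD48-, where LSK stands for cells without lineage markers that carry Sca-1 and c-Kit. One library of Mx1-Cre Id2+/+ cells (the control) and 1 of Mx1-Cre Id2-deleted cells were made, from 1000 sorted cells and a pool of 5 mice aged 8 to 12 weeks in each case. Both groups carried Mx1-Cre, a recombinase switched on by interferon that acts in the hematopoietic system and in other tissues, and the study's methods treated both with pIpC, a synthetic RNA that induces interferon. Cells of 1 library are not replicates, so no test between the genotypes was possible and no p-value is given.

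Histones package DNA. An octamer of H2A, H2B, H3 and H4 forms the nucleosome core, and H1 binds the linker DNA between cores. Replication-dependent histones are made in bulk while DNA is copied, from intronless genes that lie in clusters, and most of their mRNAs end in a stem-loop in place of a poly(A) tail. Replacement histones are made throughout the cell cycle from single, mostly intron-containing genes with polyadenylated mRNAs, and they exchange for the core proteins outside replication. The 10x Genomics assay primes on poly(A), so most stem-loop mRNA is outside what it captures, and the counts of replication-dependent genes below cover the captured molecules only. Molecules were counted by unique molecular identifiers (UMIs), and levels are given as CPM, the counts scaled to the summed UMIs of the cell kind, with 95% intervals that cover counting error only. CPM is a share of the captured RNA, so a gene's molecules per cell and the amount of other RNA per cell cannot be told apart.

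The replication-dependent genes followed the known clusters of the mouse genome (mm10/GRCm38, positions from RefSeq). The Hist1 genes lay on chromosome 13 in blocks of 22 genes at chr13:21715711-22043658 and 31 genes at chr13:23531044-23934913, with Hist1h2al apart at chr13:51200084-51203066 as a transcribed pseudogene. The Hist2 cluster held 11 rows of the table, of which 2 are Hist2h2bb, at chr3:96219885-96270192, the Hist3 cluster 2 genes at chr11:58948911-58955192, and Hist4h4 stood alone at chr6:136803993-136804431. Replacement genes were scattered, with H2afz at chr3:137864487-137866922, H3f3a at chr1:180802560-180813605, H3f3b at chr11:116021961-116026039, H1f0 at chr15:79028212-79030504 and H2afy at chr13:56073622-56135626. RefSeq matched 80 of the 83 rows. H3f3aos, H2afb1 and Hist1h2ap were not matched. Many cluster genes encode near-identical proteins, so reads shared between copies may be missing from single genes, and all values of single replication-dependent genes are uncertain in that sense.

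The libraries held 8612217 UMIs (Id2+/+) and 17140713 UMIs (Id2-deleted), and 333 and 625 barcodes passed as cells. After removal of clusters that carried markers of other cell types, 262 and 416 cells remained (median 7081 and 9663 UMIs per cell). These are called retained cells, and all 14 HSC markers were found in both libraries, with Hlf at 136 and 86.6 CPM and a sum of 2194 and 1820 CPM. The 16 erythroid markers also had UMIs in these cells, at 3317 and 2823 CPM in sum. The other kinds were erythroid-like (35 and 156 cells, median 37549 and 40039 UMIs), neutrophil-like (27 and 40 cells) and haemoglobin-rich erythroid-like cells (9 and 13 cells). Histone genes were kept out of the clustering. Retained and erythroid-like cells of the 2 libraries lay largely in different clusters, while the neutrophil-like cells formed 1 cluster: of the 6 retained clusters, those led by Id2+/+ cells held 168 and 5 cells and 41 and 3 cells (Id2+/+ and Id2-deleted), and the others 13 and 146, 17 and 131, 7 and 76, and 16 and 55 cells. The mean log2 fold of the HSC markers in a cluster over all other cells was 0.89 and -0.77 in the first pair and 0.97, -0.01, -0.91 and -0.09 in the others, so not every retained cluster was high in them. The erythroid-like clusters held 27 and 0, 0 and 75, and 8 and 81 cells. The pools also held cells of both sexes in unlike proportions. Of the retained cells, 84 (Id2+/+) and 231 (Id2-deleted) had an Xist and no Y-linked UMI, and 93 and 90 the reverse. Genotype, library, the sex mix and the mix of clusters within a kind therefore cannot be told apart in the ratios between the libraries. In retained cells Id2 had 22 UMIs in the Id2+/+ library and 0 in the Id2-deleted library, which allows a share of cells with a UMI of up to 0.721% and does not limit the share of cells that expressed it. Over all barcodes Id2 had 99 and 4 UMIs. Free RNA, estimated from haemoglobin, made up 10.5% and 5.40% of the UMIs of retained cells. The libraries shared 1 barcode among the cells called. Of 13 neutrophil markers 12 had a UMI in retained cells of each library (1117 and 657 CPM in sum, Ly6g at 0), and the 9 megakaryocyte markers summed to 1510 and 2188 CPM, and their part in the histone ratios was not tested.

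Captured histone RNA was dominated by the replacement class. In retained cells the 13 replacement genes summed to 6729 CPM (6619 to 6840) in Id2+/+ and 7326 CPM (7249 to 7404) in Id2-deleted, and the 69 replication-dependent genes to 682 CPM (647 to 718) and 536 CPM (515 to 557). A single retained cell held a median of 43 and 65 replacement UMIs but of 3 replication-dependent UMIs in each library. No replication-dependent UMI was found in 29 of the 262 Id2+/+ cells and 56 of the 416 Id2-deleted cells, whereas every retained cell had at least 17 replacement UMIs. Barcodes with 1 to 100 UMIs, taken as empty droplets, carried replacement genes at 6956 and 7679 CPM and replication-dependent genes at 350 and 344 CPM. The replacement level of the cells was thus close to that of free RNA, and the summed replication-dependent level was above it, although the H4 genes among them were lower in the cells (81.6 and 82.8 CPM) than in empty droplets (93.3 and 105.5 CPM).

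**Figure D1:**
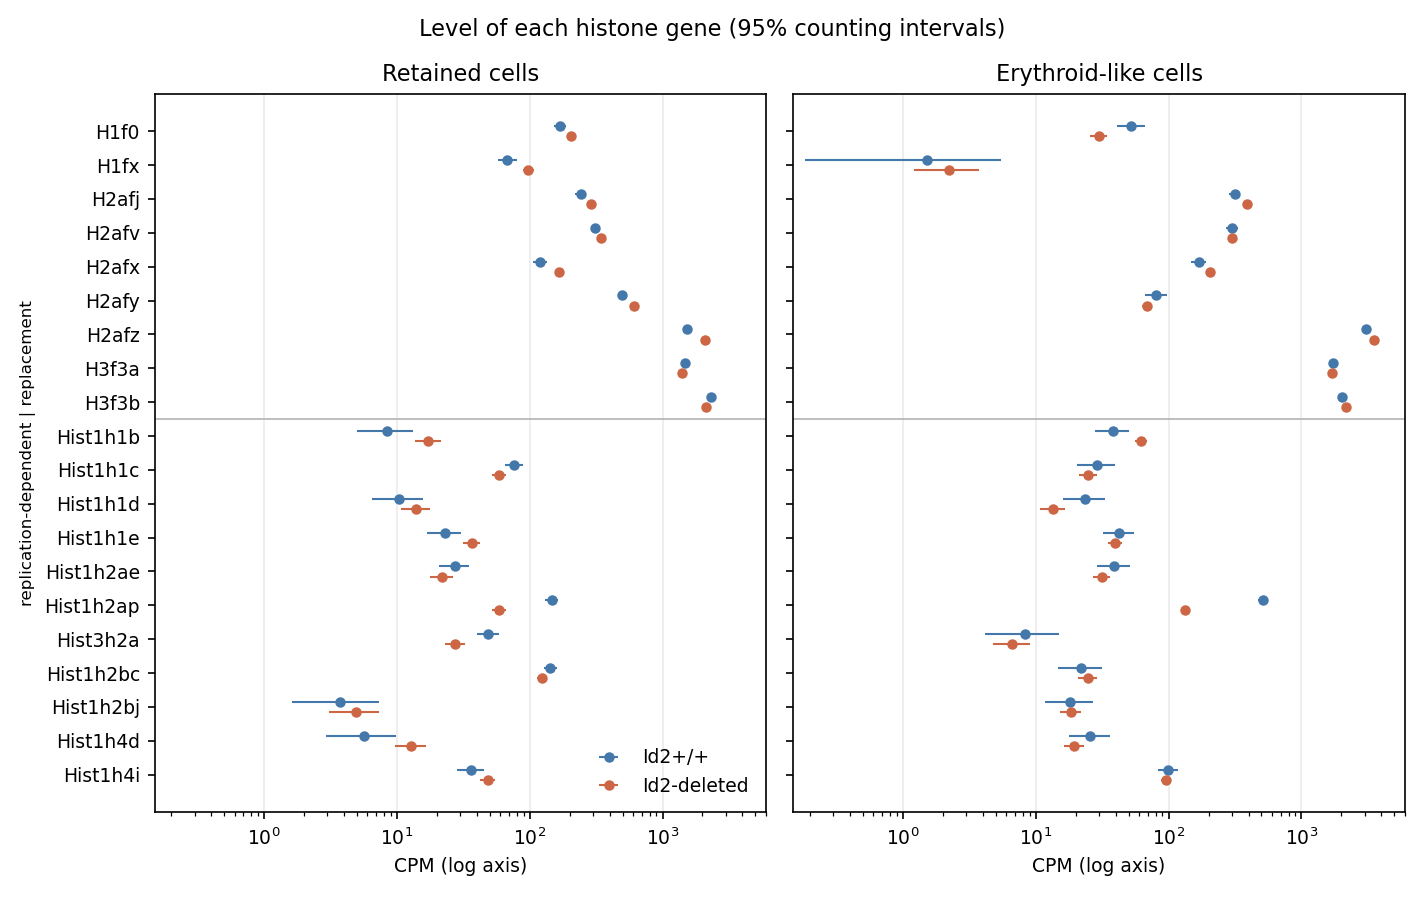
CPM (log axis) of the 20 histone genes with at least 100 UMIs, in retained (left) and erythroid-like cells (right), with Id2+/+ in blue, Id2-deleted in orange and bars for 95% counting intervals. H2afz, H3f3a and H3f3b lie above 1000 CPM in both kinds, and Hist1h2ap has the widest gap between the libraries of the replication-dependent genes shown.

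Values are given one by one for the 20 members with at least 100 UMIs over both libraries in retained or erythroid-like cells, of which 9 were replacement and 11 replication-dependent genes. Of the other 58 replication-dependent genes, none had more than 96 UMIs in either kind, and together they summed to 153 and 111 CPM in retained cells. No UMI was seen in either kind for H2afb1, H2afb2 and H2afb3, H2A variants known from testis, or for Hist1h2ad, Hist1h2ba, Hist1h2bq and Hist1h2br. H3f3aos had 5 UMIs in retained cells.

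The H3 replacement genes H3f3a and H3f3b, which encode the same variant protein and mark active chromatin, stood at 1484 and 2322 CPM in Id2+/+ retained cells. In the Id2-deleted library they stood at 1398 and 2114 CPM, a ratio of 0.94 (0.90 to 0.98) and 0.91 (0.88 to 0.94). Every H2A variant among the 9 replacement genes was higher in the Id2-deleted retained cells. H2afz, which encodes H2A.Z found at promoters, was at 1519 CPM (Id2+/+) and 2093 CPM (Id2-deleted), a ratio of 1.38 (1.32 to 1.43). H2afx, whose protein is phosphorylated at DNA breaks, was at 120 and 166 CPM, also a ratio of 1.38 (1.19 to 1.59).

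H2afy encodes macroH2A, a large variant of silent chromatin, and was at 492 and 612 CPM, a ratio of 1.24 (1.16 to 1.34). H2afj was at 241 and 287 CPM (ratio 1.19), and H2afv, the gene of the second H2A.Z protein, at 310 and 345 CPM (ratio 1.11). The H2A variants together were at a ratio of 1.31 (1.27 to 1.35). The linker variants were higher as well: H1f0, known from cells that have left the cycle, was at 170 and 206 CPM (ratio 1.21, 1.07 to 1.37), and H1fx at 68.0 and 97.7 CPM (ratio 1.44, 1.19 to 1.75). None of these 9 genes reached a 1.5-fold difference in retained cells. H2afy2, the second macroH2A gene, did so on few counts, with 6 and 39 UMIs. When all cell kinds were pooled, H2afy, H1f0 and H3f3a lay on the other side of 1, at 0.88, 0.89 and 1.02, and H3f3b was at 1.04 in retained cells that had an Xist but no Y-linked UMI.

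The summed S-phase list, 37 replication genes that hold no histone, was at 2561 and 3188 CPM in the same cells (ratio 1.24), and a list of 51 G2/M genes at 3211 and 4077 CPM (ratio 1.27). These lists moved with the H2A variants. The part of the cell cycle in the H2A difference was not tested. Within 4 bins of retained cells ranked by the S list the H2afz ratio ran from 1.005 in the lowest bin through 1.37 and 1.51 to 1.10 in the highest. In 4 bins ranked by the G2/M list it was 1.21, 1.23, 1.53 and 1.22, each with an interval above 1.

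Among the replication-dependent genes of the retained cells, Hist1h2ap, Hist1h2bc and Hist1h1c gave the most UMIs in both libraries. Hist1h2ap, an H2A gene, gave 21.5% of the replication-dependent UMIs in Id2+/+ and 11.0% in Id2-deleted, where it was level with Hist1h1c at 277 UMIs each. Hist1h2bc, an H2B gene, gave 21.0% and 23.1%. The linker gene Hist1h1c gave 11.1% and 11.0%. The 7 replication-dependent genes annotated as longer than 1000 bases, mostly through Hist1h2bc, held 28.9% of the UMIs of matched genes, where most of the cluster genes measured about 500 bases (median 480.5 and 502 bases in the Hist1 blocks).

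Of the 20 members given singly, Hist1h2ap had the ratio furthest from 1 in retained and in erythroid-like cells. In retained cells it had 313 UMIs and 147 CPM in Id2+/+ against 277 UMIs and 59.1 CPM in Id2-deleted, a ratio of 0.40 (0.34 to 0.48). In erythroid-like cells it was at 513 and 134 CPM, a ratio of 0.26 (0.24 to 0.29), and in neutrophil-like cells at 156 and 31.7 CPM, a ratio of 0.20 (0.12 to 0.33). The Id2-deleted library was therefore the lower one in each of the 3 cell kinds. Empty droplets held Hist1h2ap at 21.1 and 11.7 CPM, and haemoglobin-rich cells had no UMI of it in 9 and 13 cells, for which 3 counts would be 37.0 and 26.8 CPM.

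Within subdivisions of the retained cells, Hist1h2ap was at a ratio of 0.33 in Xist-only cells (at least 1 Xist and no Y-linked UMI, 84 and 231 cells) and of 0.47 in Y-only cells (the reverse, 93 and 90 cells). From the lowest to the highest S bin the ratio was 0.25, 0.39, 0.44 and 0.32. In the G2/M bins it was 0.53 (0.26 to 1.09) in the lowest, where the interval held 1, and then 0.19, 0.21 and 0.38. Few cells held most of its UMIs: those with 5 or more, 12 of 262 in Id2+/+ and 16 of 416 in Id2-deleted, held 59.1% and 52.7% of them. A single Id2+/+ cell held 37 of the 313 UMIs, and without the top cell of each library the ratio was 0.42 (0.36 to 0.50). Every cell was then thinned to 5800 UMIs, which left out 66 shallower Id2+/+ cells and 0 Id2-deleted cells. The cell cut was 4393 UMIs in Id2+/+ and 6177 UMIs in Id2-deleted, so only Id2+/+ cells could be left out. After thinning, 28.6% of the Id2+/+ cells (exact binomial interval 22.4 to 35.4) and 15.9% of the Id2-deleted cells (12.5 to 19.7) had a Hist1h2ap UMI. Without thinning the shares were 32.8% and 22.6%.

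**Figure D2:**
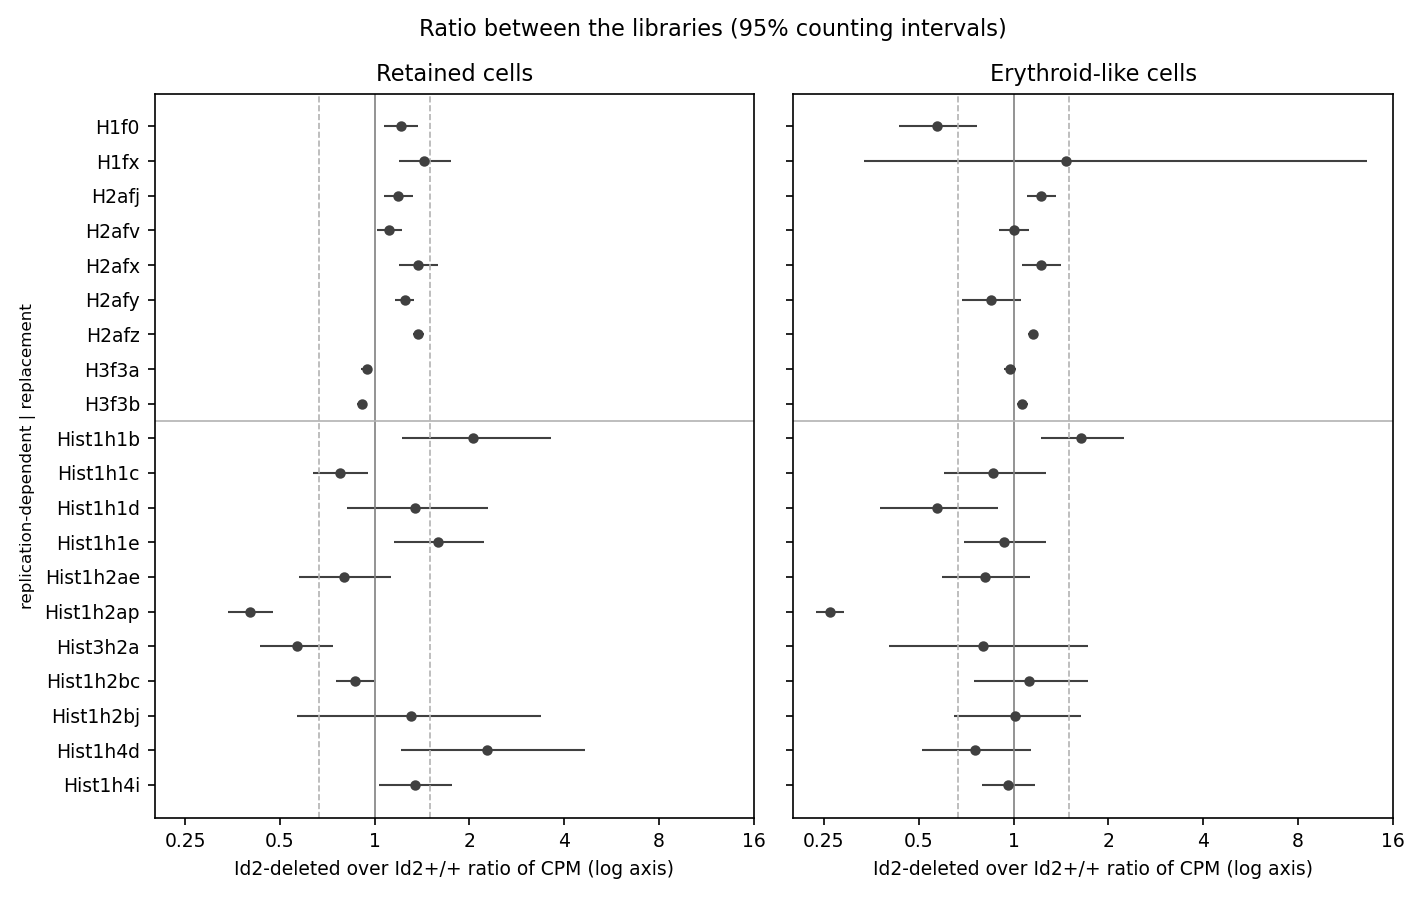
Ratio of CPM, Id2-deleted over Id2+/+ (log axis), for the 20 histone genes in retained (left) and erythroid-like cells (right), with 95% counting intervals, a solid line at 1 and dashed lines at 1.5-fold. Hist1h2ap lies beyond the lower dashed line in both panels, and most replacement genes lie between the dashed lines, H1f0 in erythroid-like cells excepted.

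The other replication-dependent genes moved in both directions. With at least 20 UMIs over both libraries in retained cells, 25 of the 69 could be compared. Of these 25, 9 (36%) were at least 1.5-fold lower in Id2-deleted, against 13.3% of all genes, and 5 (20%) were at least 1.5-fold higher, against 3.76%. For 6 of the 9 the interval excluded 1, namely Hist1h2ac, Hist1h2ap, Hist1h2be, Hist1h3a, Hist2h4 and Hist3h2a, and Hist1h4h, Hist2h2be and Hist4h4 were the other 3. The higher genes were Hist1h1b, Hist1h1e, Hist1h2bb and Hist1h4d, and Hist1h1a, whose interval held 1. The called genes had 22 to 590 UMIs, and with a minimum of 100 UMIs there remained 2 lower (Hist1h2ap and Hist3h2a) and 1 higher member (Hist1h1e). The shares of all genes, here and below, were not matched for counts, and none was computed at 100 UMIs. Low counts alone can carry a gene past 1.5-fold in either direction. The median log2 ratio of the 25 was -0.21, beside -0.08 over all 10458 genes. Of the 10 replacement genes compared, 1 (H2afy2) was higher and 0 were lower, with a median of 0.30.

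Hist3h2a, the H2A gene of the Hist3 cluster, was at 48.7 and 27.5 CPM, a ratio of 0.56 (0.43 to 0.74). Hist1h1c was at 75.9 and 59.1 CPM (ratio 0.78, 0.64 to 0.95) and Hist1h2bc at 143 and 124 CPM (ratio 0.86, 0.75 to 0.996). For Hist1h2bc and Hist1h1c 1 subdivision each or more turned the direction: thinned to one depth Hist1h2bc was at 1.12, in Y-only cells at 1.01, and Hist1h1c was at 1.10 in Xist-only cells.

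The linker genes Hist1h1b and Hist1h1e and the H4 gene Hist1h4d were higher in Id2-deleted retained cells, all at low counts. Hist1h1b had 18 and 81 UMIs (8.44 and 17.3 CPM, ratio 2.05, 1.22 to 3.63), Hist1h4d 12 and 60 UMIs (ratio 2.28, 1.21 to 4.65) and Hist1h1e 49 and 171 UMIs (ratio 1.59, 1.15 to 2.23). Thinned to one depth, these ratios were 1.08, 1.31 and 1.07, and all 3 intervals then held 1. Empty droplets held Hist1h1b at 8.03 and 16.6 CPM, close to its level in retained cells of the same library. Hist1h4i, another H4 gene, was at 36.1 and 48.4 CPM (ratio 1.34, 1.03 to 1.76), but at 0.82 in Y-only cells, and at 68.5 and 76.7 CPM in empty droplets, above its level in retained cells. Hist1h1d, Hist1h2ae and Hist1h2bj had intervals that held 1, with ratios of 1.35, 0.80 and 1.31.

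By family, the replication-dependent H2A genes stood apart in retained cells at 268 CPM (Id2+/+) and 135 CPM (Id2-deleted), a ratio of 0.50 (0.45 to 0.57). Without Hist1h2ap they were still at 0.63 (0.53 to 0.74). The H1, H2B and H4 genes were at ratios of 1.09, 0.90 and 1.02, and the H3 genes at 0.71 (0.50 to 1.04), each with an interval that held 1. The whole class was at 0.79 (0.74 to 0.84), and at 0.89 (0.83 to 0.96) without Hist1h2ap. The replacement class was at 1.09 (1.07 to 1.11), so the classes lay on opposite sides of 1.

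**Figure D3:**
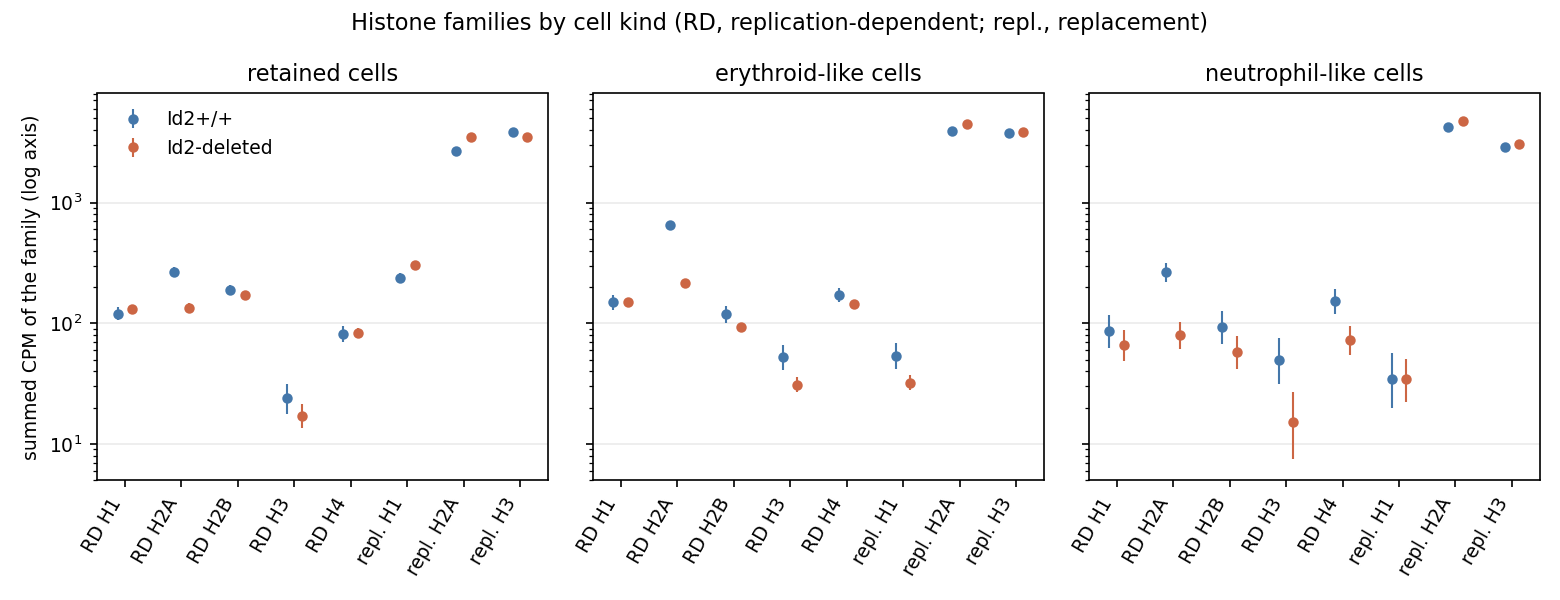
Summed CPM (log axis) of each histone family in retained, erythroid-like and neutrophil-like cells, with Id2+/+ in blue, Id2-deleted in orange and 95% counting intervals. Replication-dependent H2A genes are at 651 and 214 CPM in erythroid-like cells of the Id2+/+ and Id2-deleted libraries (139 and 80.2 CPM without Hist1h2ap), and replacement H1 genes are lower in the erythroid-like and neutrophil-like cells than in retained cells.

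Erythroid-like cells carried more replication-dependent histone RNA in CPM than retained cells. The class was at 1143 CPM (1086 to 1202) in Id2+/+ and 633 CPM (614 to 653) in Id2-deleted, which was 1.68 and 1.18 times the level of retained cells in the same library. Without Hist1h2ap these ratios were 1.18 (1.08 to 1.29) and 1.05 (0.99 to 1.11). In the Id2+/+ library 11 of the 26 replication-dependent genes with at least 20 UMIs were at least 2-fold higher in erythroid-like cells, against 9.65% of all genes, and 4 were 2-fold lower, against 29.1%. In the Id2-deleted library 17 of 37 were higher, against 9.53%, and 4 were lower, against 30.6%. The S list was 2.19 and 1.79 times as high in erythroid-like cells as in retained cells, and the G2/M list 3.19 and 2.90 times. How far these lists account for the histone difference was not tested.

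The genes fell on both sides. Hist1h1b was 4.49 times (2.58 to 8.18) as high as in retained cells in Id2+/+ and 3.59 times (2.82 to 4.62) in Id2-deleted. Hist1h2ap was 3.49 and 2.26 times as high, Hist1h4i 2.75 and 1.97 times and Hist1h2bj 4.85 and 3.74 times. Hist1h1b and Hist1h2bj met the UMI minimum for single values in erythroid-like cells only, so their selection favours a high value here. Hist1h2bj had 8 and 23 UMIs in retained cells and 24 and 116 in erythroid-like cells. Hist1h2bc was in contrast at 0.15 (0.10 to 0.23) and 0.20 (0.17 to 0.24) of its level in retained cells, Hist3h2a at 0.17 and 0.24, and Hist1h1c at 0.38 and 0.42. The same 3 genes were thus low in the erythroid-like cells of both libraries. Of them, Hist3h2a met the UMI minimum in retained cells only, so its selection favours a low value here. The replication-dependent genes over 1000 bases were together at 0.34 and 0.30 of the retained level, and those of up to 1000 bases at 1.55 and 1.34.

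The replacement variants were also split by cell kind. H2afz was at 3066 and 3524 CPM in erythroid-like cells, 2.02 times (1.93 to 2.11) and 1.68 times (1.64 to 1.72) the retained level. H2afy was at 81.1 and 68.9 CPM, only 0.17 and 0.11 of the retained level, and its neutrophil-like level of 550 and 540 CPM was close to that of retained cells. H1fx was nearly absent, with 2 and 14 UMIs, 0.02 of the retained level in each library. It met the UMI minimum for single values in retained cells only. H1f0 was at 52.3 and 29.9 CPM, 0.31 and 0.15 of the retained level. H3f3a and H3f3b were between 0.87 and 1.21 times the retained level in erythroid-like cells. In neutrophil-like cells the replacement H3 genes together were at 0.76 times (0.72 to 0.81) and 0.87 times (0.83 to 0.91) the retained level.

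Between the libraries, the replication-dependent class of erythroid-like cells was lower in Id2-deleted. Its ratio was 0.55 (0.52 to 0.59), and 0.79 (0.73 to 0.86) without Hist1h2ap, while in these cells the S list was at 1.02 (0.995 to 1.05) and the G2/M list at 1.15 (1.13 to 1.18). Of 38 replication-dependent genes compared, 16 were at least 1.5-fold lower in Id2-deleted, against 11.8% of all genes, and 2 were higher (Hist1h1b and Hist1h4f), against 5.64%. The interval excluded 1 for 9 of the 16 and for Hist1h1b, but held 1 for Hist1h4f, which had 20 UMIs. By family the ratios were 0.33 for H2A (0.58, 0.49 to 0.69, without Hist1h2ap, which held 676 of the 859 Id2+/+ UMIs), 0.59 for H3, 0.78 for H2B, 0.84 for H4 and 1.02 for H1. Hist1h1b was at 37.9 and 62.1 CPM, a ratio of 1.64 (1.22 to 2.25), and Hist1h1d at 23.5 and 13.5 CPM, a ratio of 0.57 (0.38 to 0.89). The remaining 8 given genes, Hist1h1c, Hist1h1e, Hist1h2ae, Hist1h2bc, Hist1h2bj, Hist1h4d, Hist1h4i and Hist3h2a, had intervals that held 1, with ratios from 0.76 to 1.12.

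Replacement genes of erythroid-like cells were at a class ratio of 1.08 (1.06 to 1.10). H2afz was at 1.15 (1.11 to 1.19), H2afj and H2afx at 1.22, and H3f3b at 1.07 (1.02 to 1.11). H2afv, H2afy and H3f3a were at 1.001, 0.85 and 0.98, with intervals that held 1. H1f0 was at 0.57 (0.43 to 0.77), but 22 of its 69 Id2+/+ UMIs came from 1 cell, and without the top cell of each library the ratio was 0.77 (0.56 to 1.09). Thinned to one depth H1f0 was at 1.06 (0.46 to 2.83), and H3f3b turned to 0.90 (0.84 to 0.96) in Xist-only cells. In neutrophil-like cells the replication-dependent class was at 647 and 292 CPM (ratio 0.45, 0.38 to 0.54), 0.53 without Hist1h2ap, and the replacement class at 7188 and 7831 CPM (ratio 1.09). Of 8 replacement genes compared there, 1 was at least 1.5-fold higher, H2afx at 119 and 195 CPM (ratio 1.64, 1.19 to 2.28), against 8.99% of all genes, and 0 were lower. Only 6 replication-dependent genes could be compared there: 3 were lower (Hist1h2ap, Hist1h2ae and Hist1h2bc), against 11.8% of all genes, and 0 were higher, against 8.99%. The haemoglobin-rich cells held 5 and 7 replication-dependent UMIs in all.

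The replication-dependent genes differed from each other in how their levels ran with the S list. Retained cells of both libraries were ranked together by the S list and split at the quartiles into 4 bins of 82, 74, 61 and 45 Id2+/+ cells and 88, 95, 108 and 125 Id2-deleted cells. From the lowest to the highest bin the summed class was at 753, 666, 672 and 639 CPM in Id2+/+ and at 531, 583, 607 and 462 CPM in Id2-deleted. The highest bin stood at 0.85 times (0.73 to 0.98) and 0.87 times (0.77 to 0.99) the lowest. In the Id2+/+ library this ratio turned in Y-only cells (ratio 1.29, 0.99 to 1.68), and in Y-only Id2-deleted cells the ratio was 0.57. Without Hist1h2ap the ratios were 0.55 (0.46 to 0.66) for Id2+/+ and 0.74 (0.65 to 0.84) for Id2-deleted. Single genes moved far more than the sum. Median depth rose from 6058 to 11393 and from 7608 to 13176 UMIs per cell across the bins, and its part was not tested.

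Hist1h2ap was at 83.5 CPM in the lowest and 270 CPM in the highest S bin of Id2+/+ (3.24 times, 2.30 to 4.64), and at 21.2 and 85.9 CPM in Id2-deleted (4.05 times, 2.38 to 7.42). Hist1h1b had 0 and 7 UMIs in these bins of Id2+/+ and 3 and 48 in Id2-deleted. H2afz was 2.08 and 2.29 times as high in the highest bin, and H2afx 1.79 and 2.07 times. Hist1h2bc ran the other way, from 199 to 29.0 CPM in Id2+/+ (0.15 times, 0.08 to 0.25) and from 164 to 40.7 CPM in Id2-deleted (0.25 times, 0.18 to 0.34). Hist1h1c was at 0.16 and 0.35 times, Hist3h2a at 0.32 and 0.27 times, H1f0 at 0.54 and 0.50 times, and H3f3b at 0.76 and 0.78 times. Of the replication-dependent genes with at least 20 UMIs in these bins, 2 of 7 in Id2+/+ and 3 of 13 in Id2-deleted were at least 2-fold higher, against 7.51% and 8.17% of all genes. Lower by that margin were 3 of 7 and 4 of 13, against 8.62% and 8.73%.

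Ranked by the G2/M list instead, Hist1h2bc was not low at the top. The highest over the lowest G2/M bin was 1.75 times (1.20 to 2.60) and 1.22 times (0.97 to 1.56) for Hist1h2bc, 9.08 and 6.37 times for Hist1h2ap, 3.10 and 3.13 times for H2afz, and 2.23 and 1.89 times for the replication-dependent sum. The cells were therefore split at the medians of both lists together, a split chosen after these values were seen.

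Hist1h2bc and Hist1h1c were highest in the cells that were low in the S list and high in the G2/M list (61 Id2+/+ and 55 Id2-deleted cells). There Hist1h2bc was at 343 CPM in Id2+/+ and 383 CPM in Id2-deleted, 4.20 times (3.03 to 5.88) and 4.40 times (3.41 to 5.73) the level of cells low in both lists. Hist1h1c was at 165 and 148 CPM there, 2.45 times (1.65 to 3.67) and 2.47 times (1.73 to 3.52) the level of cells low in both. In cells high in both lists Hist1h2bc stood at 99.7 and 74.7 CPM and Hist1h1c at 41.9 and 45.2 CPM, beside 81.7 and 86.9 CPM and 67.3 and 60.2 CPM in cells low in both. In cells high in the S list alone, Hist1h2bc was at 92.2 CPM (64.2 to 128) in Id2+/+ and 170 CPM (141 to 203) in Id2-deleted. The median UMI count of the low-S, high-G2/M cells was 6296 and 8071, close to the 6220 and 7807 of cells low in both lists.

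Hist1h2ap and H2afz followed another order. Hist1h2ap was highest in cells high in both lists, at 282 CPM in Id2+/+ and 90.7 CPM in Id2-deleted (5.17 and 4.52 times the cells low in both), and at 149 and 56.5 CPM in the low-S, high-G2/M cells. In cells high in S and low in G2/M it was only at 50.1 and 11.0 CPM. H2afz was likewise highest where both lists were high (2373 and 2792 CPM, 2.90 and 2.89 times). Hist3h2a was at 0.52 (0.28 to 0.94) and 0.39 (0.25 to 0.59) times in cells high in both. Both libraries gave the same order of the 4 groups of cells for H2afz and the same highest group for Hist1h2ap, Hist1h2bc and Hist1h1c.

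**Figure D4:**
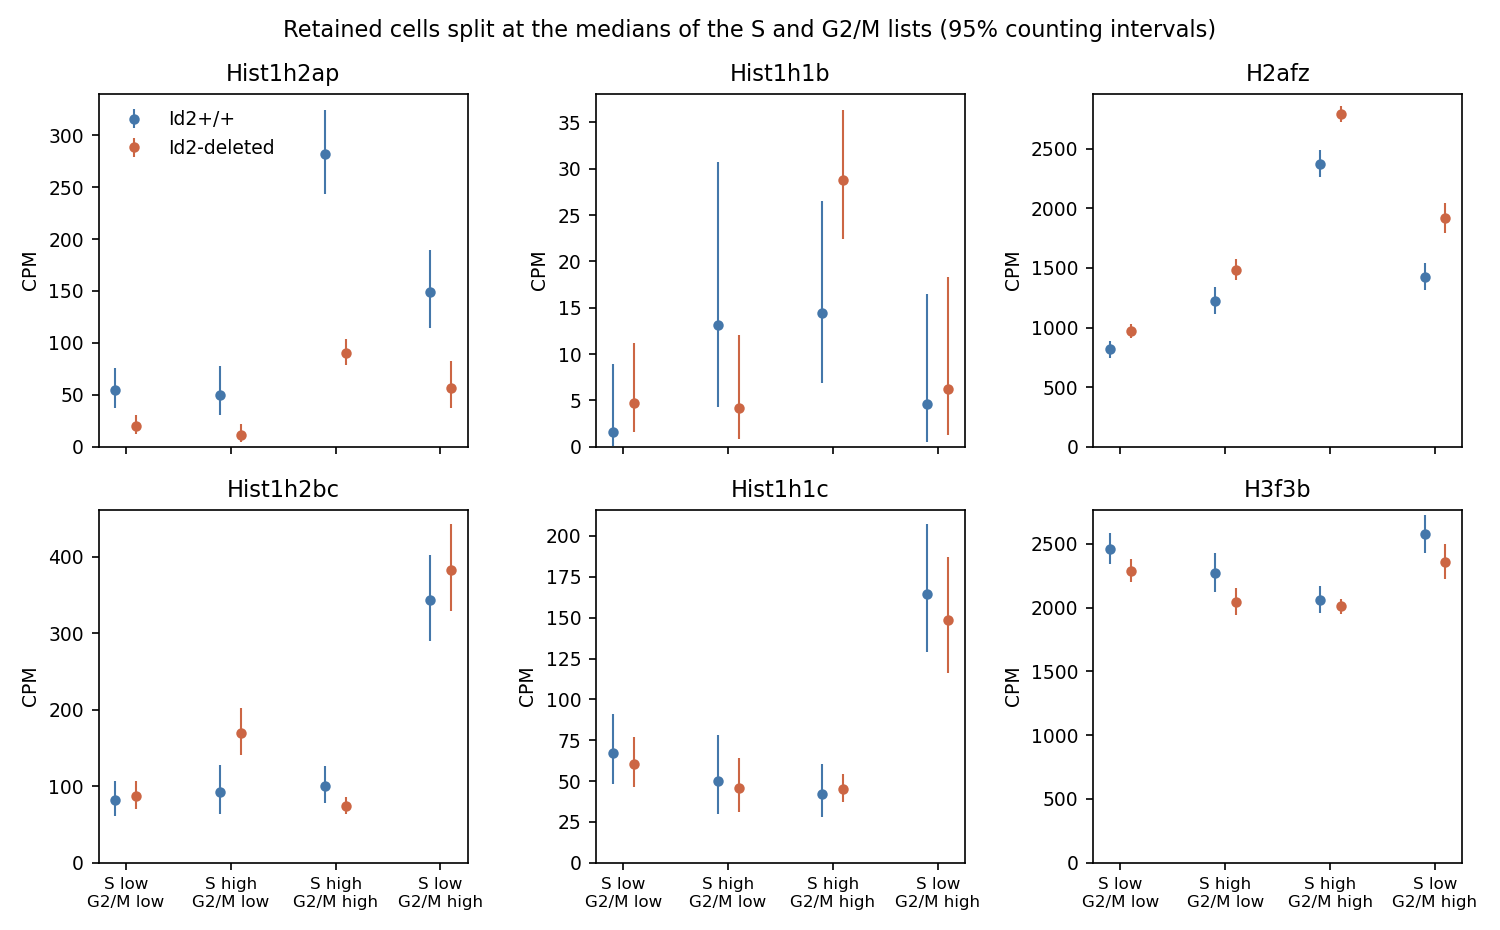
CPM of 6 histone genes in retained cells split at the medians of the S and G2/M lists, with Id2+/+ in blue, Id2-deleted in orange and 95% counting intervals. Hist1h2ap and H2afz are highest where both lists are high, Hist1h2bc and Hist1h1c where S is low and G2/M high, and Hist1h2ap is lower in Id2-deleted in all 4 groups of cells.

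The cells that held Hist1h2bc and Hist1h1c overlapped in part. Over single retained cells the CPM of both correlated with r = 0.65 in Id2+/+ (262 cells) and 0.58 in Id2-deleted (416 cells), given as a description because the cells of a library share its preparation and differ in depth. Only 20 Id2+/+ and 38 Id2-deleted cells had 5 or more Hist1h2bc UMIs, and they held 70.2% and 74.3% of all its UMIs. Of these cells 16 and 30 also had Hist1h1c, against 87 of 262 and 143 of 416 of all retained cells. For Hist1h2bc and Hist3h2a r was 0.53 and 0.19, and 12 of the 20 and 14 of the 38 cells also had Hist3h2a, against 78 of 262 and 94 of 416. For Hist1h2bc and Hist1h2ap r was 0.09 and -0.01. Of the cells with 5 or more Hist1h2bc UMIs, 14 of 20 and 12 of 38 also had Hist1h2ap, against 86 of 262 and 94 of 416 of all retained cells.

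The machinery that makes, carries and deposits histones was described with 34 genes, of which 33 could be compared in retained cells. None was 1.5-fold higher (background 3.76%) or lower (13.3%), and the median log2 ratio was 0.15 in retained and 0.04 in erythroid-like cells. In erythroid-like cells 0 of 33 passed in either direction, against 5.64% (higher) and 11.8% (lower) of all genes. Slbp, which binds the stem-loop of replication-dependent mRNA, was at 192 and 240 CPM in retained cells (ratio 1.25, 1.12 to 1.40). The H2A-H2B chaperone Nap1l1 was at 368 and 429 CPM (ratio 1.17), Ssrp1 of the FACT complex at 262 and 291 CPM (ratio 1.11), and Anp32e, which removes H2A.Z, at 186 and 231 CPM (ratio 1.24, 1.11 to 1.40). Rbbp7, an H4-binding protein, and Mcm2, a helicase subunit that binds H3-H4, were at ratios of 1.07 and 0.93, with intervals that held 1. In erythroid-like cells Slbp was 2.38 and 2.11 times and the chaperone Nasp 3.39 and 2.91 times as high as in retained cells. Of the 33 genes, 6 were at least 2-fold higher there in each library, against 9.65% and 9.53% of all genes. By the same margin 0 were lower, against 29.1% and 30.6%.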

How the data were processed

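The authors deposited raw UMI counts per gene and barcode for 1 library per genotype, with 737280 barcodes and 27998 genes each. The submitters' processing notes name Cell Ranger 2.2.0 and mm10, and no call of cells was part of the files. Deposited counts were used unchanged. Among the 1000 deepest barcodes the 99th percentile of depth was taken, and a cell had 10% of it or more, and under 10% mitochondrial UMIs. Cells of both libraries were clustered on 2000 variable genes without histones (scanpy 1.11.5, 20 components, 15 neighbours, Leiden resolution 1, seed 0). A cluster was removed as another kind when at least 4 of its markers exceeded a log2 fold of 1 in 25% of its cells and HSC markers were lower. Doublets were kept, since Scrublet marked 2 of 333 and 1 of 625 cells. Counts were summed per library and kind, and ratios have exact conditional, levels exact Poisson, 95% intervals (scipy 1.17.1). Genes with at least 20 UMIs were compared. Members with at least 100 UMIs are given singly. Intervals were tested on simulated counts that held counting error only, so the test could not show how they fare with spread between cells. Histone genes, lists and thresholds were chosen with earlier results of these data known. The 6 chaperone and processing genes named first are those with the most UMIs. In the label text, 1 clause names Id2+/+ bones for the Id2-deleted sample. The title and genotype field set the group.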

Additional observations from a re-analysis of the deposited data

Results flagged for a closer look

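Among the 20 genes with values, H1f0 and H3f3b lay on opposite sides of 1 in retained and erythroid-like cells, with intervals that excluded 1 in both. H1f0 was at 1.21 in retained and 0.57 in erythroid-like cells, and H3f3b at 0.91 and 1.07 (Id2-deleted over Id2+/+). The difference between the kinds was not tested, since each kind has 1 library per genotype. For H1f0 the erythroid-like value without the top cell of each library was 0.77 with an interval that held 1, and 1.06 after thinning to one depth. With all cell types kept, H1f0 was at 0.89 in place of the retained value. In Xist-only cells H3f3b was at 1.04 in retained and 0.90 in erythroid-like cells, the reverse of the values over all cells of these kinds.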

How the results depend on the processing

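No paired analysis was possible because there is only 1 library per genotype. Of 126 alternative values of the main sums and counts, 87 stayed within the counting interval (or within 1.5 times, for counts). The replication-dependent ratio between the libraries was below 1 and the replacement ratio above 1 under every alternative run. Counts of members depended on the minimum: with none, 21 higher and 28 lower, and with 100 UMIs 1 and 2, beside 6 and 9. The share of all genes that passed was computed in the main run only. Member counts of the other runs, here and in the next paragraph, therefore have no background and are not read as results about histones. Thinned to one depth, 3 and 5 members passed, the replication-dependent ratio was 0.48 in erythroid-like cells, the replacement ratio 1.06 in retained cells, and erythroid-like over retained 2.07 in Id2+/+. With all cell types kept, 1 and 24 members passed, and the class ratios were 0.70 and 1.12.

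In Xist-only cells, 3 members were lower, the replication-dependent ratios were 0.84 (retained) and 0.41 (erythroid-like), erythroid-like over retained was 2.12 and 1.02, and highest over lowest S bin 0.69 and 0.65, for Id2+/+ and Id2-deleted. In Y-only cells, 3 members were higher and 2 lower, the replacement ratios were 1.13 and 1.05, erythroid-like over retained 1.82 and 1.25, and highest over lowest S bin 1.29 (the direction turned) and 0.57. Erythroid-like cells of these subsets numbered 6 to 69. Without Hist1h2ap in the sum, an alternative chosen after seeing the data, the ratios were 0.89 and 0.79, erythroid-like over retained 1.18 and 1.05, and highest over lowest S bin 0.55 and 0.74. edgeR 4.0.16 and DESeq2 1.42.0 scaling put the replacement ratio of retained cells at 1.14 and 1.15. The mean over cells gave 1.27 (erythroid-like over retained) and 0.76 (S bins) in Id2-deleted, and no mitochondrial limit a replacement ratio of 1.12 in erythroid-like cells. The causes were not tested.

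Of 497 alternative values of single-gene ratios, 440 stayed within the counting interval and 47 left it without a counted turn. A turn was counted only where the main interval excluded 1, and by that rule directions turned 10 times. Thinning put Hist1h2bc at 1.12 in retained and H1f0 at 1.06 in erythroid-like cells. Xist-only cells gave H3f3b 1.04 in retained and 0.90 in erythroid-like cells, and Hist1h1c 1.10 in retained cells. Y-only cells gave Hist1h2bc 1.01 and Hist1h4i 0.82. Keeping all cell types gave H1f0 0.89, H2afy 0.88 and H3f3a 1.02. Under these alternatives Hist1h2ap lay between 0.33 and 0.47 in retained and 0.17 and 0.28 in erythroid-like cells. Depth limits most replication-dependent genes, of which 39 of 69 had 1 to 19 UMIs in retained cells, and p-values would need more libraries.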
